A study of Mus musculus with 6 samples.

Results

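The 30 genes described here carry out mitosis and the G2 phase before it, and they were taken by symbol from the deposited matrix of read counts, which lists 54532 mouse gene IDs. All 30 were found, each with 1 ID, and all 30 were among the 15203 genes with enough reads to be tested. Samples were 6 tumours of G422, a mouse glioblastoma cell line, grown under the skin of Kunming mice, an outbred stock, with 3 tumours of cells labelled shNgb and 3 of cells labelled shVec. By its name shNgb is a short hairpin RNA against Ngb, the gene of neuroglobin, an oxygen-binding globin of neurons, and shVec is the vector control. Both were brought in by lentivirus, both groups are otherwise labelled untreated, and no source used here gives the age of the mice. The design text names Ngb itself rather than a hairpin as what was introduced, so shNgb and shVec stand below for the labels. The sources do not say that each tumour grew in its own mouse, and the p-values below reflect only the variation among these 6 samples, part of which may be technical.

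Cells enter mitosis when cyclin B bound to the kinase Cdk1 becomes active, after a rise in transcription of cyclins, kinases and spindle genes during S and G2 phase. Much of that rise runs through promoters that hold a CHR (cell cycle genes homology region) and CCAAT boxes. The MuvB complex binds the CHR, as part of the repressing DREAM complex in resting cells and with B-Myb and then FoxM1 in cycling cells, and NF-Y binds CCAAT boxes. The transcripts are made in cycling cells and fall away in resting ones, so in bulk tissue they are widely read as a measure of proliferation. In bulk tumour RNA, fewer cycling cells and less of a transcript in each cycling cell cannot be told apart.

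The promoter sequences that hold these motifs are shown first, for the 4 members with the smallest p in the comparison of the groups. Each line gives the 150 bases before the annotated transcription start, read in the direction of the gene, from RefSeq (build GRCm38.p6). Capitals mark a CHR, searched as TTTGAA or TTCGAA, or a CCAAT box, on either strand, so that TTCAAA and ATTGG are the same motifs on the opposite strand.
Ccnf (chr17:24251410-24251559, minus strand): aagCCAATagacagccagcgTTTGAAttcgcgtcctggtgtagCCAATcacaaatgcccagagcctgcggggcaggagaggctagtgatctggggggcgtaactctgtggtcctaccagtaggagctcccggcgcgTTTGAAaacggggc
Ndc80 (chr17:71526858-71527007, minus strand): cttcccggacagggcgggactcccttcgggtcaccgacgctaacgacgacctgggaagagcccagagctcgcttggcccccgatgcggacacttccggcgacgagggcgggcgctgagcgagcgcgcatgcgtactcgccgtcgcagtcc
Cenpe (chr3:135212413-135212562, plus strand): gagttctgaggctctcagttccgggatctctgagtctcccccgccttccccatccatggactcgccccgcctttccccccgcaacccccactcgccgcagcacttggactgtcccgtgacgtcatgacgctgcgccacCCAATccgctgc
Kif23 (chr9:61946800-61946949, minus strand): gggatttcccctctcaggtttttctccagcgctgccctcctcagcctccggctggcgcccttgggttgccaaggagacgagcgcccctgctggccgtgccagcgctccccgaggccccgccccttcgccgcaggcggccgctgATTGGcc
The Ccnf promoter held 2 CCAAT boxes and 2 CHR matches, the second of them 14 bases before the start. Cenpe and Kif23 had 1 CCAAT box each, and the upstream bases of Ndc80 had no match. The GENCODE models of Ccnf and Cenpe begin earlier, within the bases shown.

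In several members the CHR lies after the RefSeq start. The CHR nearest that start is therefore shown with 10 bases on each side for 9 members of different roles. The motif is again in capitals.
Ccnf (chr17:24251408-24251433, minus strand): tcccggcgcgTTTGAAaacggggcgg
Ndc80 (chr17:71526813-71526838, minus strand): aactttaaaaTTCAAAccgccttggg
Kif23 (chr9:61946782-61946807, minus strand): gattggcctgTTTGAAatgcgccggg
Ccnb2 (chr9:70421535-70421560, minus strand): cggcgcggtaTTTGAAtcgcggaccg
Cdk1 (chr10:69352912-69352937, minus strand): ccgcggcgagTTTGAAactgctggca
Plk1 (chr7:122159455-122159480, plus strand): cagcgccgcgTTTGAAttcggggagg
Cdc20 (chr4:118437346-118437371, minus strand): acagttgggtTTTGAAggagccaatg
Bub1 (chr2:127831830-127831855, minus strand): gcgcggggaaTTCGAAtcgccggcgg
Top2a (chr11:99024197-99024222, minus strand): tagataaaggTTCAAAtgaaactagg
With the first transcribed base counted as 1, the match began at base 30 in Ndc80, 3 in Kif23, 5 in Ccnb2, 31 in Plk1 and 15 in Bub1. It began before the start in the others, at -14 in Ccnf, -15 in Cdk1, -18 in Cdc20 and -23 in Top2a. These positions count from the RefSeq starts. In the GENCODE models the matches of Ccnf and Cdk1 lie inside the gene. Those of Kif23 and Ccnb2 begin before it. Bub1 carried the TTCGAA form.

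RefSeq windows from 250 bases before to 50 bases after the start were given for 25 of the 30 members. Ccna2, Aurkb, Kif20a, Tpx2 and Foxm1 are named only. In 15 of the 25 the bases just after the RefSeq start lay in the longest protein-coding GENCODE transcript. In the rest the start, and so the distance of a match from it, is less certain. A CHR was present in 20 of the 25 members (80.0%), against 21.7% of 27025 genes with a window of the same length. In the bases from 100 before to 50 after the start the shares were 80.0% and 9.87%. A CCAAT box was present in 21 members (84.0%, against 41.1% of all genes), and both motifs in 18 (72.0%, against 8.61%). At least 2 CCAAT boxes were held by 15 members (60.0%, against 13.3%). The 5 members without a CHR match were Ccnb1, Cenpe, Nusap1, Birc5 and Nek2, and those without a CCAAT box were Nusap1, Birc5, Anln and Ndc80. Among other mitotic genes, 63.5% of 63 had a CHR and 65.1% a CCAAT box. DNA replication genes had the CCAAT box nearly as often (64.0% of 25) but a CHR in 24.0%. A match is a description of letters in a window and does not show that a factor binds there.

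**Figure D1:**
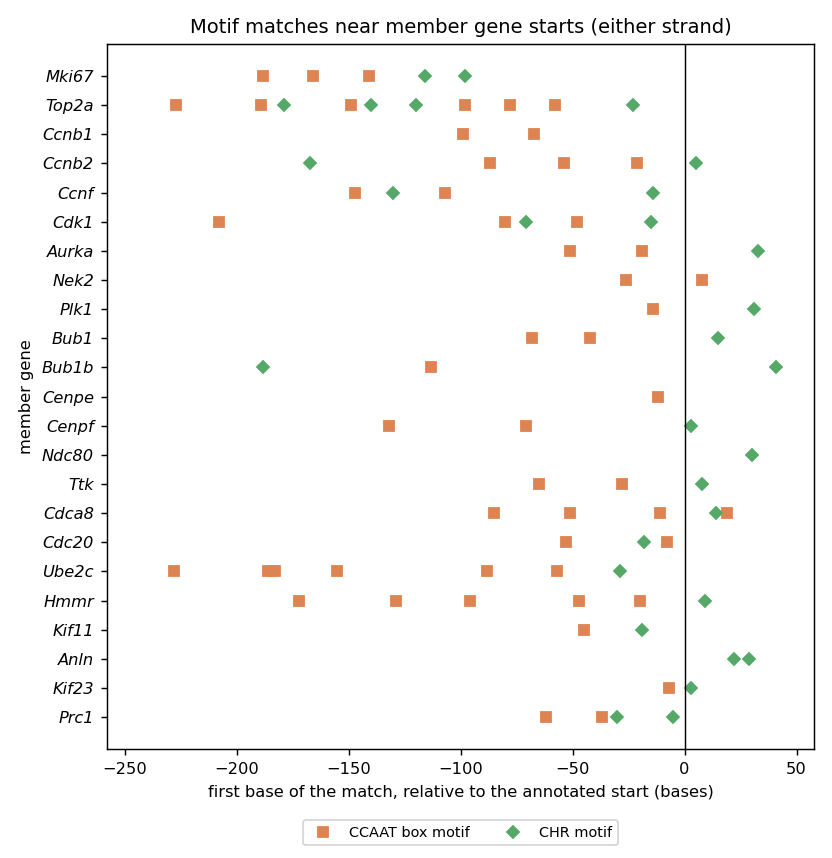
CHR matches (green) and CCAAT boxes (orange) by distance in bases from the start annotated by RefSeq for the 23 members with a match. Each point is the first base of a match. CCAAT boxes lie mostly before the start and CHR matches cluster around it; Prc1 has 2 annotated starts and its matches are drawn from both.

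Read totals were 19630319 to 22427004 in the shVec libraries and 21018697 to 25620667 in the shNgb libraries, and the 30 members took 0.444% to 0.521% of them. For Ngb itself 28, 23 and 13 reads were counted with shVec, against 18, 19 and 11 with shNgb, with overlap between the groups. Of the glioma and neural markers, Nes, Sox2, Cspg4 and Vim were present in all 6 tumours, while the glial markers Olig2 (0 reads in all), Gfap (0 to 6 reads) and S100b (2 to 6 reads) were absent or nearly so. Members had 830 reads (Ttk) or more in every library and up to 23063 (Top2a). Counting error at these depths is 0.741% to 3.20% of a level (coefficient of variation, CV), below the median CV of 7.08% between tumours of a group.

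The mitotic program was expressed at nearly the same level in both groups, and no member passed the test. At an adjusted p under 0.05 in edgeR, 0 of the 30 members were higher and 0 lower in shNgb, as were 0% and 0% of all genes, and the smallest adjusted p of a member was 0.9997. The log2 fold changes (shNgb minus shVec) were small and above 0 in 29 of 30 members, where 50.9% of all genes were above 0. Their median was 0.08, against 0.0026 for all genes, and they ran from -0.05 (Anln) to 0.33 (Ccnf). An unadjusted p under 0.05 was reached by 1 member, Ccnf, while 1.35% of all genes reached it with a higher level in shNgb. Without shVec 1 the members below 0.05 were Ccnb2, Cenpe and Ccnf (1.37% of all genes were higher at that p), and without shNgb 2 they were Kif23, Ccnf and Hmmr (1.81% of all genes), 3 in each case. The 95% intervals of all 30 members lay inside a 1.5-fold change in either direction.

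**Figure D2:**
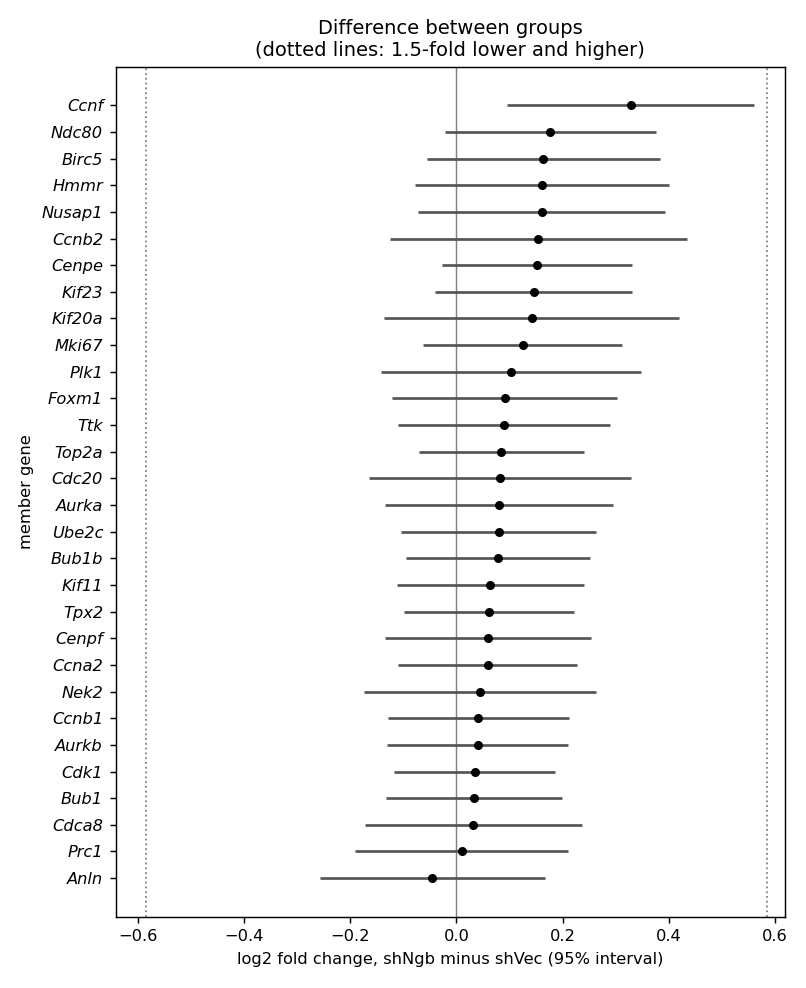
Log2 fold change of each member, shNgb minus shVec, as points with 95% intervals from edgeR (3 tumours per group); the solid line is no difference and the dotted lines are 1.5-fold lower and higher. The interval of Ccnf alone lies wholly above 0, and all 30 intervals stay inside the dotted lines.

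A single tumour carried much of this offset. The tumour shNgb 3 had the highest value of 21 of the 30 members, and shVec 2 had the lowest of 15. Over all tested genes shNgb 3 was highest in 21.9% and shVec 2 lowest in 15.2%. Averaged over the 30 members, log2 CPM (the read level after TMM scaling for library size) centred on the 6 tumours was -0.010, -0.098 and -0.034 for shVec, against 0.029, -0.024 and 0.135 for shNgb. The tumour shNgb 2 thus lay among the shVec tumours, and the groups overlapped. Without shNgb 3 the median log2 fold change of the members was 0.03 and 23 of 30 were above 0, and without shNgb 2 it was 0.12 and all 30 were above 0. Groups did not overlap in 3 members higher in shNgb (Top2a, Ccnf and Ndc80) and 0 lower, beside 3.67% of all genes higher and 3.43% lower. With 5 tumours in place of 6, groups separate more often in all genes. The members higher without overlap then numbered 10 without shVec 1 (8.96% of all genes), 5 without shVec 2 (10.1%), 6 without shVec 3 (6.32%) and 11 without shNgb 2 (9.49%).

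**Figure D3:**
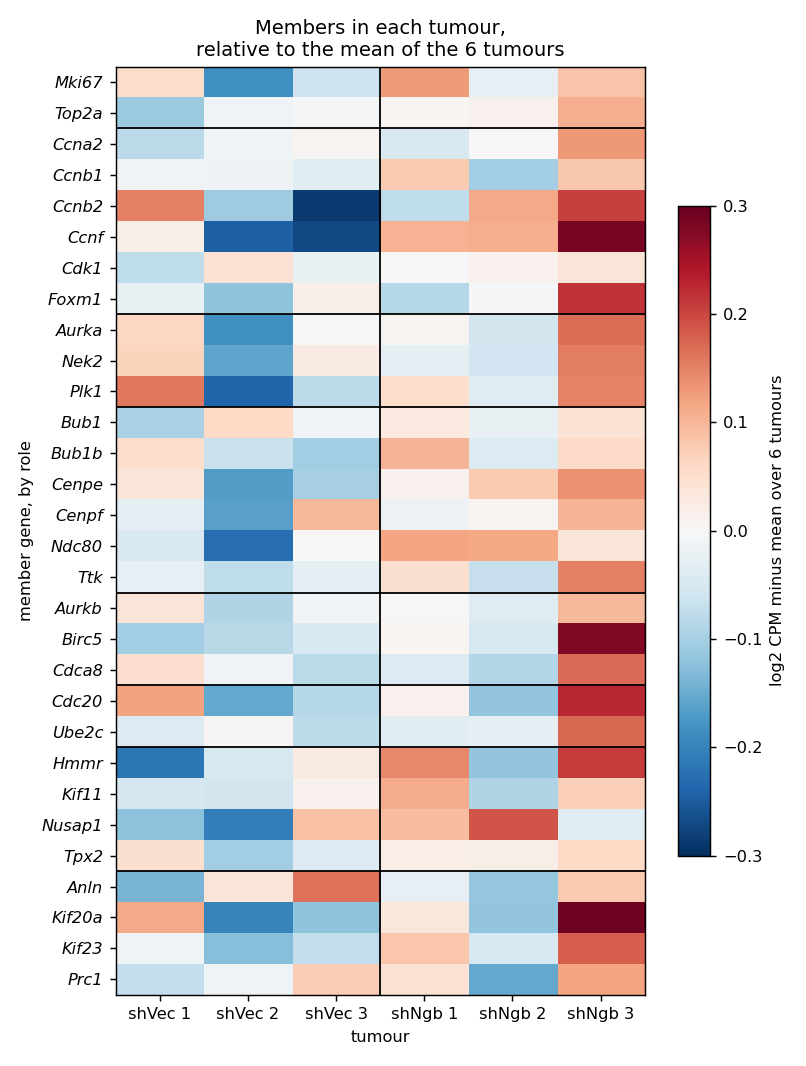
Log2 CPM of each member in each tumour minus its mean over the 6 tumours, as colour (red above, blue below); rows are members grouped by role with lines between roles, columns are tumours. The column of shNgb 3 is red in most rows and that of shVec 2 blue in most, while shNgb 2 is mixed.

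Summed levels of T and NK cell markers and of macrophage markers were also highest in shNgb 3. The summed T and NK cell markers stood at 4.10, 14.5 and 2.60 CPM in shVec, against 2.99, 14.0 and 31.0 CPM in shNgb, with a log2 fold change above 0 in all 7 that were tested of the 8 markers. The 9 macrophage markers summed to 112, 204 and 170 CPM in shVec, against 135, 245 and 305 CPM in shNgb, all 9 above 0. Cd14 was highest in shNgb 1 (24.1 CPM, against 21.1 in shNgb 3). Mrc1 was highest in shVec 3 (10.5, against 10.1) and Itgam in shNgb 2 (1.81, against 1.57). The other macrophage markers were highest in shNgb 3. Igha and Jchain, immunoglobulin chains of plasma cells, were highest there too, with Igha at 2.14, 0.454 and 0.815 CPM in shVec, against 1.11, 4.81 and 8.24 CPM in shNgb. Both had an edgeR unadjusted p under 0.05 (0.0397 and 0.0410) and an adjusted p of 0.9997. Fibroblast markers went different ways: of 5 tested, 4 were above 0 and 2 had an unadjusted p under 0.05, both collagen I genes, Col1a1 (196.5, 139 and 130 CPM in shVec, against 354, 209.7 and 281 CPM in shNgb) and Col1a2 (119, 73.1 and 79.4 CPM, then 241, 114 and 174 CPM). Col3a1 was instead lowest in shNgb 3, at 605 CPM against 1345 to 1666 CPM in the other 5 tumours. The fibroblast list mean was highest in shNgb 1 (0.83) and lowest in shVec 3 (-0.58). The 4 tested glioma and neural markers were below 0 with TMM scaling (median log2 fold change -0.12, with Vim nearest to 0 at -0.02), and their list mean was lowest in shNgb 3 (-0.17). Nes, an intermediate filament of neural progenitors, stood at 477, 545 and 496 CPM in shVec, against 439, 383 and 420 CPM in shNgb, without overlap (log2 fold change -0.29, edgeR unadjusted p = 0.00652, adjusted p = 0.9997). In shVec 2, where the members were low, T and NK markers were the highest of the shVec group. Endothelial markers summed to 68.5 to 73.3 CPM in shVec, against 61.8 to 75.6 CPM in shNgb. Skeletal muscle markers were at 7.23 to 19.6 CPM in shVec, highest in shVec 2, and 5.74 to 7.03 CPM in shNgb. Red cell markers summed to 17.9 to 35.8 CPM in shVec and 24.7 to 49.8 CPM in shNgb, highest in shNgb 3. The part of these cells in the levels of mitotic genes was not tested.

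Mki67, the antigen of the Ki-67 proliferation stain, and Top2a, the topoisomerase that untangles chromosomes, were the most abundant members by reads. Mki67 stood at 393, 333 and 362 CPM in shVec, against 413, 372 and 401 CPM in shNgb. The lowest shNgb value lay below the highest shVec value, and the difference of 0.12 (log2, SE 0.08, edgeR unadjusted p = 0.166) did not pass. Top2a stood at 759, 815 and 816 CPM in shVec, against 823, 828 and 884 CPM in shNgb. All 3 shNgb values lay above the shVec values, by a margin smaller than the spread within either group, and its log2 fold change was 0.08 (SE 0.07, edgeR unadjusted p = 0.247).

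Among the cyclins, their kinase and their transcription factor, Ccnf had the largest difference of any member. It encodes cyclin F, an F-box protein of G2 phase that marks substrates for ubiquitination rather than activating a kinase, and lies on chromosome 17 at 24222198 to 24251484 (minus strand, GRCm38). Its levels were 68.2, 56.9 and 55.9 CPM in shVec, against 72.5, 72.7 and 82.2 CPM in shNgb. The groups did not overlap, and shVec 1 was the shVec tumour nearest to the shNgb group. The fold was 1.26 (log2 0.33, 95% interval 0.10 to 0.56, SE 0.10), with an edgeR unadjusted p of 0.0111 that did not hold over all genes (edgeR adjusted p = 0.9997). Leaving out each tumour in turn gave log2 fold changes of 0.26 (without shNgb 3) to 0.42 (without shVec 1).

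Ccnb2, a B-type cyclin, spread widely within groups, at 81.7, 68.3 and 60.3 CPM in shVec, against 69.8, 79.5 and 84.8 CPM in shNgb. Its log2 fold change of 0.15 (SE 0.12, edgeR unadjusted p = 0.244) was 0.05 without shVec 3 and 0.28 without shVec 1. Ccnb1, the main mitotic B cyclin, was steadier at 183 ± 1.41 CPM in shVec, against 188 ± 13.3 CPM in shNgb (SD, n = 3 each, as below). A pseudogene, Ccnb1-ps, matches 1287 bases of it at 99.2% identity, with reads equal to 0.965% of its own. The S and G2 cyclin Ccna2 stood at 183 ± 5.88 and 191 ± 12.1 CPM, and 12.5% of its exon bases are shared with Exosc9 on the other strand. Cdk1, the kinase that these cyclins activate, was the least variable member, with a CV of 3.11% within groups, at 235, 255 and 245 CPM in shVec, against 248, 250 and 255 CPM in shNgb. Foxm1, the forkhead factor of G2 transcription, stood at 103 ± 5.01 and 110 ± 12.1 CPM, its highest value again in shNgb 3 (124 CPM).

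The mitotic kinases overlapped between groups. Plk1, the polo-like kinase of mitotic entry and spindle assembly, stood at 100 ± 14.1 CPM in shVec, against 108 ± 6.96 CPM in shNgb, with its extremes both in shVec tumours (115 in shVec 1 and 87.5 in shVec 2). Aurka, the Aurora kinase of spindle poles, stood at 86.0 ± 7.45 and 91.0 ± 7.40 CPM. Nek2, a kinase of centrosome separation, stood at 58.6 ± 4.75 and 60.4 ± 4.90 CPM. All 3 kinases were lowest in shVec 2, and their log2 fold changes ran from 0.04 to 0.10.

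The kinetochore genes Ndc80 and Cenpe were next to Ccnf in order of p, while Bub1b, Ttk, Cenpf and Bub1 ranked 12, 13, 22 and 28 among the members. Ndc80, the microtubule-binding subunit of the kinetochore (chromosome 17, 71496100 to 71526857, minus strand), stood at 59.8, 52.7 and 61.8 CPM in shVec, against 66.9, 66.8 and 63.3 CPM in shNgb. Its groups did not overlap, and unlike most members it was lowest of the shNgb group in shNgb 3. The log2 fold change was 0.18 (SE 0.09, 95% interval -0.02 to 0.38, edgeR unadjusted p = 0.0744). A pseudogene, 2700099C18Rik, matches 303 bases of its transcript at 95.05% identity and had 306 reads per library on average, against 1372 for Ndc80, so a part of the Ndc80 count is uncertain.

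Cenpe, the kinetochore motor that moves chromosomes to the spindle equator (chromosome 3, 135212537 to 135273611, plus strand), stood at 199, 172 and 181 CPM in shVec, against 195, 204 and 213 CPM in shNgb. One shNgb value lay below the highest shVec value, and the log2 fold change was 0.15 (SE 0.08, edgeR unadjusted p = 0.0868). Cenpf, a large protein of the outer kinetochore, stood at 132 ± 12.0 and 137 ± 6.04 CPM. The checkpoint kinases Bub1 (113 ± 6.13 and 115 ± 2.76 CPM) and Ttk (42.8 ± 0.851 and 45.5 ± 3.47 CPM) and the checkpoint protein Bub1b (158 ± 9.14 and 166 ± 8.31 CPM) overlapped between groups. The 6 genes of this role had a median log2 fold change of 0.08.

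The chromosomal passenger complex, which corrects attachments and directs cytokinesis, was represented by its kinase Aurkb, the survivin gene Birc5 and the borealin gene Cdca8. Birc5 stood at 83.4, 84.6 and 86.7 CPM in shVec, against 89.9, 86.7 and 109 CPM in shNgb. The shVec tumours were within a few CPM of each other and only shNgb 3 stood well above them. Its log2 fold change was 0.16 (SE 0.10, edgeR unadjusted p = 0.126) and 0.05 without shNgb 3. Aurkb stood at 108 ± 4.85 and 111 ± 5.46 CPM and Cdca8 at 89.5 ± 4.05 and 91.5 ± 8.88 CPM.

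Cdc20, which activates the anaphase-promoting complex, stood at 137 ± 13.8 CPM in shVec, against 145 ± 17.6 CPM in shNgb, and Ube2c, an E2 enzyme that works with that complex, at 113 ± 3.20 and 120 ± 9.94 CPM. Both were highest in shNgb 3, at 164 and 131 CPM. The exons of Ube2c share 22.8% of their bases with Tnnc2 on the other strand, and the library kit does not keep strand.

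Of the spindle motors and microtubule-associated proteins, Nusap1, which bundles spindle microtubules, stood at 56.9, 53.7 and 65.9 CPM in shVec, against 66.1, 70.7 and 60.4 CPM in shNgb, highest in shNgb 2 (log2 fold change 0.16, SE 0.10, edgeR unadjusted p = 0.154). Hmmr, a spindle-associated hyaluronan receptor, stood at 87.8, 98.7 and 104 CPM in shVec, against 113, 94.0 and 118 CPM in shNgb (0.16, SE 0.11, edgeR unadjusted p = 0.162). Groups overlapped in both, with a different tumour out of line in each. Kif11, the motor that pushes spindle poles apart, stood at 135 ± 3.53 and 141 ± 10.2 CPM, and Tpx2, the activator of Aurora A on the spindle, at 178 ± 9.48 and 186 ± 3.09 CPM.

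Central spindle and cytokinesis genes differed among themselves. Kif23, a motor of the centralspindlin complex (chromosome 9, 61915905 to 61946774, minus strand), stood at 118, 109 and 113 CPM in shVec, against 126, 115 and 135 CPM in shNgb (log2 fold change 0.15, SE 0.08, edgeR unadjusted p = 0.109). Only shNgb 2 fell within the shVec range. Kif20a, a motor of the central spindle, had the widest spread within groups (CV 13.1%), at 113 ± 13.2 and 125 ± 18.2 CPM. It shares 29.3% of its exon bases with Cdc23 on the other strand. Cdc23 had 1913 reads per library on average, against 2658 for Kif20a. Since the library kit does not keep strand, a part of the Kif20a count is uncertain. Prc1, which bundles antiparallel microtubules, stood at 151 ± 7.73 and 152 ± 14.4 CPM and shares 11.1% of its exon bases with Rccd1 on the other strand. Anln, the actin-binding scaffold of the cleavage furrow, was the 1 member below 0, at 238, 269 and 293 CPM in shVec, against 257, 241 and 276 CPM in shNgb, and here the shVec tumours held both the lowest and the highest value.

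Levels per length came from the deposited FPKM (fragments scaled by gene length and library depth). They put the members in an order whose ends were clearly apart and whose middle was not. The length follows all exon bases of a gene merged, rather than a single transcript. These were 6493 bases in Ndc80 and 8225 in Prc1, against 2201 and 3026 in their longest protein-coding transcripts. The order, with Ndc80 near its low end, therefore depends on the gene models. Top2a was highest at 90.5 ± 4.20 FPKM (SD, n = 6 tumours of both groups), followed by Cdc20 at 74.8 ± 7.89, Cdk1 at 49.9 ± 1.44, Ccnb2 at 48.1 ± 6.04 and Plk1 at 46.9 ± 4.85 FPKM. The lowest were Ndc80 at 9.46 ± 0.80, Ttk at 8.92 ± 0.54 and Cenpf at 8.65 ± 0.57 FPKM, so that the highest mean was 10.5 times the lowest. In 26 of the 29 neighbouring pairs the ranges over the tumours overlapped, so neighbours in the order are mostly not separated. The ranges did not overlap between Cdc20 and Cdk1, between Ccnb1 and Tpx2, or between Nek2 and Ndc80. The median member stood at 28.6 FPKM, against 5.48 FPKM for all tested genes.

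**Figure D4:**
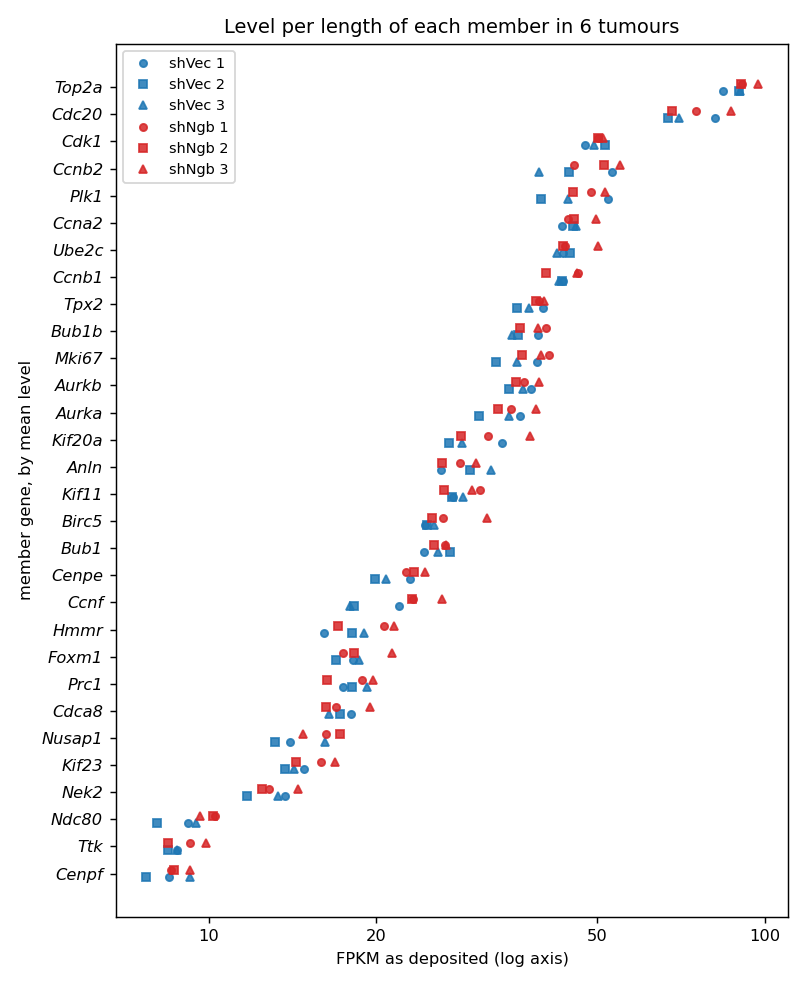
Deposited FPKM of each member in each of the 6 tumours on a log axis, ordered by the mean; blue is shVec, red is shNgb and the marker shape is the replicate. Top2a and Cdc20 stand above the rest and Ndc80, Ttk and Cenpf below, and in no member are the tumours as far apart as the ends of the order.

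Other genes of mitosis gave differences of about the same size as the members. Of 74 tested genes in 7 further mitotic lists, 63 were above 0 and 11 below, with a median log2 fold change of 0.07 and 0 called in edgeR. That median was 0.04 without shVec 2 and 0.03 without shNgb 3, the tumour that was highest in 33 of the 74. All 21 further kinetochore and checkpoint genes were above 0 (median 0.10), and all 7 condensin genes (0.05). Motors and spindle genes had 14 of 17 above 0 (0.10), cohesion and separation genes 5 of 6 (0.11), and cytokinesis genes 4 of 5 (0.06). Entry control genes (7 of 11 above 0) and the anaphase-promoting complex (5 of 7) both had a median of 0.02.

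The gene of smallest p in each of these lists gives the size of the values. Pttg1, or securin, which holds back the protease that cleaves cohesin, stood at 42.4, 44.8 and 40.1 CPM in shVec, against 48.8, 49.1 and 53.1 CPM in shNgb, without overlap (log2 fold change 0.25, SE 0.09, edgeR unadjusted p = 0.0186, adjusted p = 0.9997). It was the only one of the 74 with an unadjusted p under 0.05, which 1.35% of all genes reached with a higher level in shNgb. In 7 of the 74 all shNgb values lay above all shVec values and in 0 below, beside 3.67% and 3.43% of all genes. Spc25, a partner of Ndc80 in the same complex, stood at 38.0, 34.8 and 38.6 CPM in shVec, against 45.2, 41.5 and 40.7 CPM in shNgb, also without overlap (0.19, SE 0.09, edgeR unadjusted p = 0.0625). Dlgap5, a spindle protein, stood at 89.8 ± 3.48 and 100 ± 5.26 CPM, Ncapg of condensin at 77.2 ± 0.983 and 82.6 ± 5.94 CPM, and Cks1b, a Cdk subunit, at 191 ± 6.32 and 198 ± 6.63 CPM. Racgap1, the centralspindlin partner of Kif23, stood at 151 ± 10.6 and 159 ± 17.8 CPM, and Cdc27 of the anaphase-promoting complex at 196 ± 6.37 and 187 ± 10.9 CPM.

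Regulators upstream of the members showed less of an offset or more spread. The MuvB, B-Myb, E2F and pocket protein genes had 12 of 18 above 0 and a median of 0.05. In that list E2f1, an activator of S phase genes, stood at 86.4 ± 7.83 and 78.6 ± 5.69 CPM, and Lin37, a MuvB subunit, at 11.5 ± 1.20 and 13.2 ± 0.780 CPM. G1 cyclins and kinases had 7 of 8 above 0 (median 0.13), with Ccnd3, a D-type cyclin, at 83.5 ± 11.3 and 95.3 ± 2.41 CPM and Cdk2, the partner of cyclins E and A, at 70.6 ± 7.52 and 78.7 ± 1.47 CPM. CDK inhibitors had 3 of 7 above 0 (median -0.01). Among them Cdkn1a, which encodes p21, stood at 26.8, 40.6 and 43.1 CPM in shVec, against 35.3, 25.1 and 25.3 CPM in shNgb (log2 fold change -0.37, SE 0.21), with overlap, and Cdkn1c, which encodes p57, at 4.31 ± 0.587 and 5.04 ± 0.481 CPM. The mean of the inhibitor list was lowest in shNgb 3 (-0.27), the tumour in which the members were highest, and next lowest in shVec 2 (-0.14), in which they were lowest.

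DNA replication and G1/S genes, which act before mitosis in the cycle, also lay slightly above 0 on average. Of 30, 27 were above 0 with a median of 0.08, and shNgb 3 was highest in 19. Tyms, thymidylate synthase, stood at 64.1, 61.7 and 55.6 CPM in shVec, against 70.0, 67.5 and 68.3 CPM in shNgb, without overlap (0.18, SE 0.08, edgeR unadjusted p = 0.0558), and Cdc6, which loads the replicative helicase, at 59.6 ± 4.36 and 67.0 ± 5.59 CPM. In the list means of replication genes shNgb 2 (-0.044) again lay among the shVec tumours (-0.002, -0.040 and -0.077), as it did for the mitotic members.

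**Figure D5:**
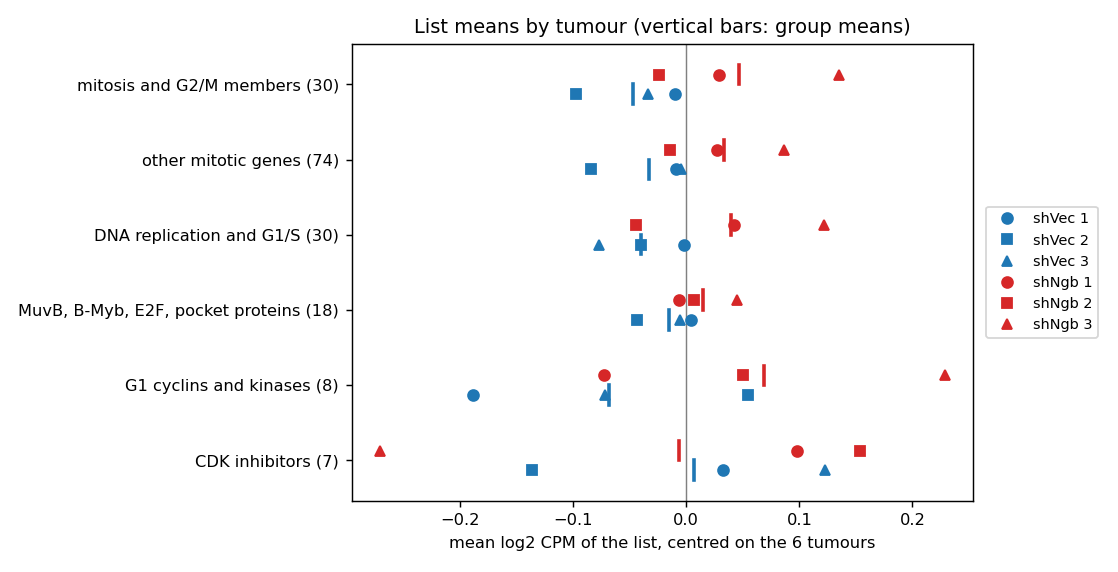
Mean log2 CPM of each gene list in each tumour, centred on the 6 tumours; points are tumours (shape gives the replicate), vertical bars are group means and numbers in brackets are genes. In every list shown except the CDK inhibitors shNgb 3 lies farthest right, and in the 6 lists shown the groups overlap.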

How the data were processed

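Per the labels' protocols, Trizol was used for the RNA and the TruSeq RNA kit of Illumina, which does not keep strand, for the libraries. The authors deposited whole-number read counts per Ensembl gene ID, without normalization, and a table of FPKM for each tumour; which counting tool and annotation were used is not given in the sources used here. Per the submitters' processing notes, Bowtie 0.12.2 and the builds mm8 and mm10 were used, with no role given for any of them. In the members the deposited FPKM were proportional to the read counts, with 1 factor per gene and 1 per library (largest relative deviation 4e-10) and were used only for levels per length.

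Groups and replicate numbers came from the sample titles. Symbols, positions (GRCm38) and overlaps came from GENCODE M21, which named 54409 of 54532 IDs; the other 123 stayed in the tests. Counts were fitted with edgeR 4.0.16 (R 4.3.3), using the default expression filter, TMM scaling and the robust quasi-likelihood F-test, with p-values adjusted over 15203 genes by Benjamini-Hochberg. SEs come from the F statistic and log2 CPM uses a prior count of 2. An exact permutation test of 3 against 3 cannot go below p = 0.1 and was not used. The comparison was repeated with limma-voom (limma 3.58.1), with DESeq2 1.42.0, with RLE or upper quartile scaling, with no filter or a strict one (10 reads and 1 CPM in 3 libraries), with a block for the replicate number, and without each tumour in turn. Copies were sought with blastn 2.17.0 (95% identity over 250 bases).

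Fold change and p are given for the 10 members of smallest p, and for other lists genes of smallest p with at least 1 CPM (1 from each further mitotic list, 2 from each upstream list and from the replication list). Immune, stromal and glial markers were named to describe the tissue. One marker list is reported only in part. The members and lists were chosen with earlier results of these data known.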

Additional observations from a re-analysis of the deposited data

How the results depend on the processing

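No member was called under any alternative tried, and Ccnf kept an unadjusted p under 0.05 in each of them (0.00187 to 0.0487). Under upper quartile scaling Ndc80 also reached it, where 1.60% of all genes were higher at that p. The members without overlap were then Birc5, Ccnf and Ndc80, beside 4.26% of all genes higher without overlap. The median of the members minus that of all genes was 0.08 under TMM, RLE and upper quartile scaling. Over all genes, where edgeR called 0 (392 at an unadjusted p under 0.05), 3 were called lower with no filter, 2 higher and 3 lower by DESeq2 (408 unadjusted), and 0 by limma-voom (428 unadjusted). With the replicate block 1 gene was called lower (426 unadjusted) and the member median stayed at 0.08. Same-numbered tumours correlated at 0.26, -0.14 and -0.10 after removal of the group means, and 2 of 6 tumours correlated best with their own number. With 3 tumours per group this check is too small to show whether the numbers pair the tumours. Leaving out single tumours gave 4 to 11 members without overlap, where 6.32% to 10.1% of all genes were higher without overlap. The log2 fold change of Racgap1 was -0.013 without shNgb replicate 3 and up to 0.15 with another tumour left out; the cause was not tested. Of the other values, 324 for single genes kept their direction and stayed uncalled. A further 103 summaries stayed within 1.5-fold (counts) or moved by less than the pooled SD of the list mean within groups (medians). For the members that SD was 0.066, not far below their median of 0.08, so the rule is lenient. Without shNgb 3 it takes in the 23 members above 0 and the fall of the member median to 0.03. It also takes in the median of the other mitotic genes there (0.03, against 0.07 with all 6 tumours). Counting error of the members (CV 0.741% to 3.20%) was below their median spread between tumours of a group (CV 7.08%).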
